A study of Mus musculus with 16 samples.

Results

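Cultured smooth muscle cells from the aortas of RBC.ARG1-KO mice (KO) were compared with cells from their RBC.ARG1-WT littermates (WT) after 10 days in DIAM, the culture medium used to promote lipid storage. The comparison took the 4 KO libraries and the 4 WT libraries whose labels give DIAM as the medium, 8 of the 16 libraries of the series. All mice were of the C57BL/6J strain, and no age is stated. KO mice carried a Cre recombinase driven by the erythropoietin receptor gene and floxed Arg1 alleles, so that Arg1, which encodes arginase 1, is lost from the red blood cell lineage. The cultured cells were therefore not the cells that the deletion is aimed at, and the genotype describes the mouse they came from. Cells were released from the vessel wall with collagenase II and grown in DMEM with 10% fetal bovine serum before the switch. DIAM was DMEM with 0.1 µM dexamethasone, 1 µM insulin and 50 µg/mL L-ascorbic acid. The other 8 libraries, 4 KO and 4 WT, stayed in DMEM with serum. The sources used here do not say if serum was kept in DIAM. The series text speaks of biological replicates but does not tie a library to one mouse or to a pool, so p-values measure the spread between these cultures.

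Smooth muscle cells of the artery wall normally contract, but in atherosclerotic plaques they can lose contractile proteins, take up or make lipid and come to resemble foam cells. Dexamethasone acts through the glucocorticoid receptor and insulin through its receptor kinase. Together they are the core of the mixtures used to drive preadipocytes toward fat storage, with fatty acid synthesis, triglyceride assembly and lipid droplet coating as the main steps. Arginase 1 splits arginine into ornithine and urea and so competes with nitric oxide synthases for arginine, and arginase of red blood cells can act on the arginine of the surrounding plasma.

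The deposited table held between 37354778 and 43018718 estimated counts in each of the 8 DIAM libraries. Levels below are CPM, the count scaled to the library's normalised total, listed in the order of library numbers 1 to 4, and they compare a gene between libraries, not one gene with another. Arg1 was close to absent, with 1, 9, 0 and 5 counts in the WT and 3, 4, 2 and 1 counts in the KO libraries in DIAM, too few to test, so the gene itself gives no check of the genotype labels. In DMEM it had 3, 4, 3 and 3 counts in the WT and 12, 22, 2 and 49 counts in the KO libraries, higher in 3 of the 4 KO libraries than in any WT library. Smooth muscle genes were present in every DIAM library, where Acta2 averaged 772 ± 167 CPM in WT and 845 ± 227 CPM in KO libraries (SD, n = 4 each). Xist, the transcript of the inactive X chromosome, stood at 102 to 153 CPM in all 8 DIAM libraries although the labels give the sex as male. Transcripts of the Y chromosome were not analysed here. The summed level of 10 markers of Schwann and neuronal cells was 377 to 906 CPM in WT and 68.3 to 245 CPM in KO libraries, without overlap. That of 9 mesothelial markers was 125 to 341 CPM in WT and 214 to 714 CPM in KO libraries and overlapped. The first principal component of the 8 libraries carried 54.2% of the variance. On it the WT libraries lay from -35.9 (library 2) to -3.78 (library 3). The KO libraries lay from 8.07 (library 4) to 27.6 (library 1), without overlap. Mitochondrially encoded transcripts made up 1.82 ± 0.083% of counts in WT and 1.98 ± 0.075% in KO libraries (SD, n = 4 each).

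Between KO and WT in DIAM, 487 genes were higher and 704 lower in KO at an adjusted p under 0.05, of 14217 tested (3.43% and 4.95%, together 8.38%; quasi-likelihood test of edgeR, p adjusted by Benjamini-Hochberg over all genes). The higher genes included enzymes that make, store and burn fatty acids. The lower genes included genes of cell division, collagens and other matrix genes. Most differences were modest in size: 14 of the higher and 153 of the lower genes differed by at least 1 on the log2 scale, and the median over all genes tested was 0.00. In 1049 genes (7.38%) every KO library lay above every WT library, and in 1286 (9.05%) every KO library lay below. The reported fit shared an estimate of the spread over all 16 libraries, and the counts changed with the libraries and the test used. A fit of the 8 DIAM libraries alone called 0 genes (smallest adjusted p = 0.065) although 3674 genes had an unadjusted p under 0.05, against 843 higher and 1031 lower by DESeq2 on the same 8 libraries, and all 1191 genes kept their direction. Leaving out 1 DIAM library left between 43 and 643 higher and between 135 and 837 lower genes, with 43 and 135 without KO library 2, 88 and 187 without KO library 1, 88 and 211 without WT library 1, and 123 and 193 without WT library 2. With the mean level of the Schwann and neuronal markers as a covariate, 0 genes were called (897 at an unadjusted p under 0.05, smallest adjusted p = 0.573), and 1180 of the 1191 genes kept their direction. Those markers and the genotype moved together in DIAM and cannot be told apart there.

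**Figure D1:**
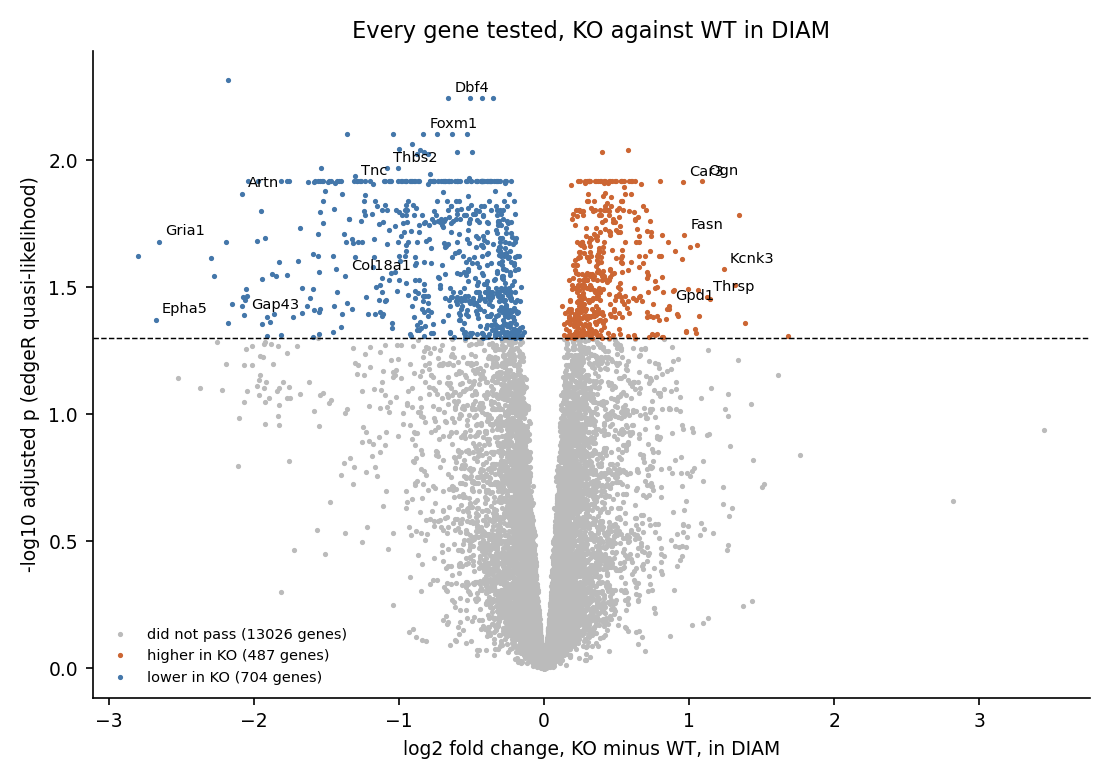
Each point is 1 of the 14217 genes tested, with the log2 fold change of KO against WT in DIAM on the x axis and -log10 of the adjusted p on the y axis; orange points are the 487 genes higher in KO, blue points the 704 genes lower in KO and the dashed line is an adjusted p of 0.05. The blue points reach farther from 0 than most orange ones, with 153 blue and 14 orange genes past a log2 fold change of 1 in size.

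**Figure D2:**
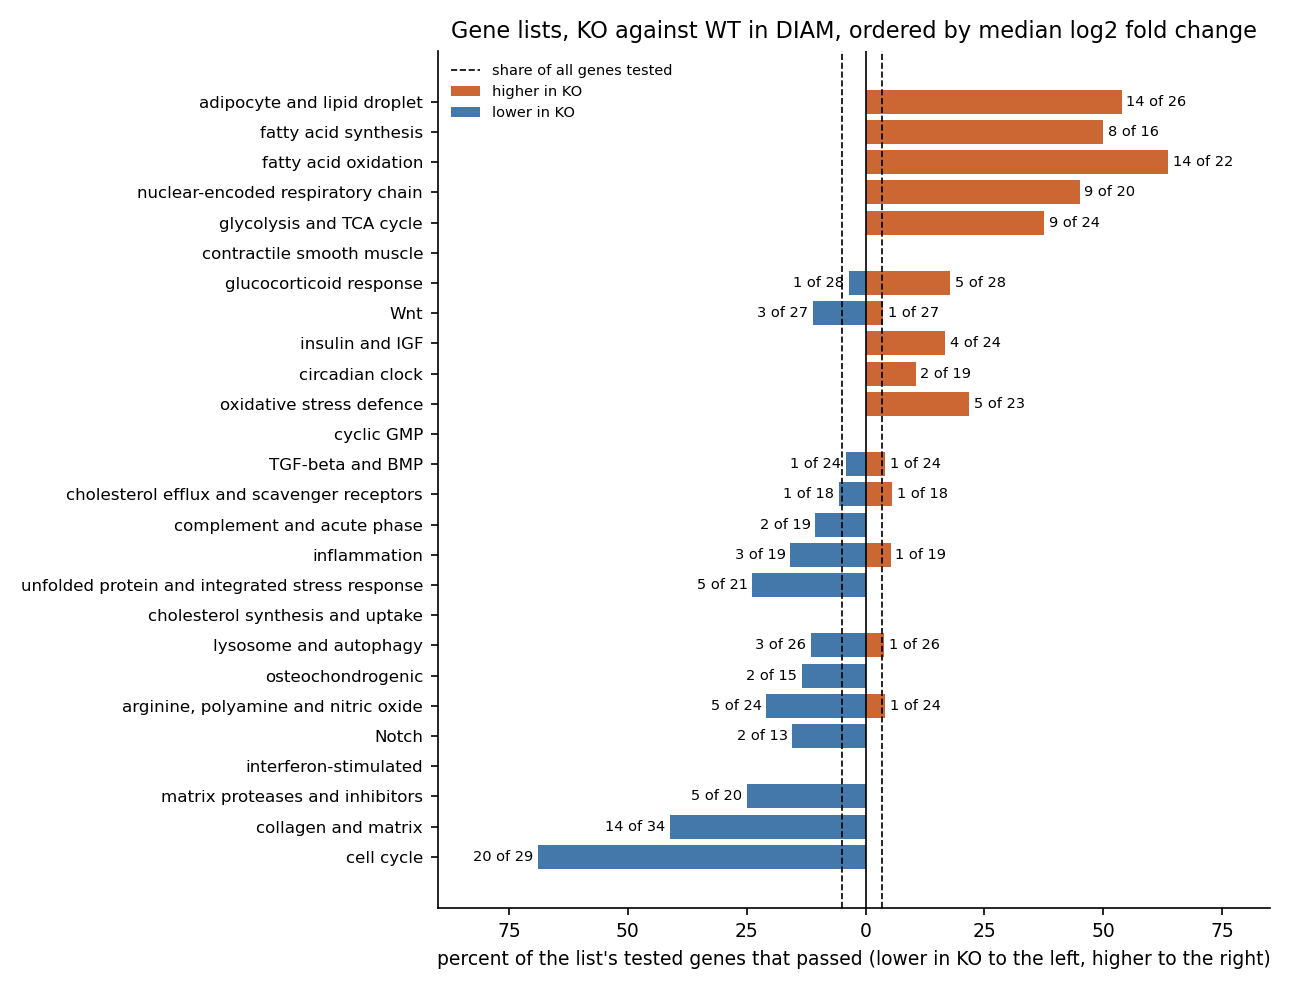
Bars give the share of each list's tested genes that passed, lower in KO to the left and higher in KO to the right, with the counts beside the bars and the share of all genes tested as dashed lines (4.95% and 3.43%). Lists are ordered by their median log2 fold change, from adipocyte and lipid droplet genes at the top to cell cycle genes at the bottom.

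Fatty acid synthesis genes were higher in KO cells, with 8 of 16 tested genes passing and none lower, where 3.43% of all genes passed in that direction. Their median log2 fold change was 0.44, against 0.00 over all genes tested. Fasn encodes fatty acid synthase, the enzyme that builds palmitate from malonyl-CoA. Fasn stood at 1371, 705, 1751 and 1911 CPM in the WT libraries and 2968, 3257, 2359 and 2618 CPM in the KO libraries. The lowest KO library was above the highest WT library, as the rule that named Fasn among the largest rises requires. WT library 2 was the lowest of all 8. Fasn differed by 0.97 on the log2 scale (SE 0.22, adjusted p = 0.0197). Acaca makes malonyl-CoA for that synthesis. Acaca stood at 318, 204, 389 and 422 CPM in the WT libraries and 579.6, 637, 448 and 543 CPM in the KO libraries (log2 fold change 0.73, SE 0.17, adjusted p = 0.0228). Acly, which splits exported citrate into acetyl-CoA, differed by 0.63 (adjusted p = 0.017), and Slc25a1, the mitochondrial citrate carrier, by 0.31 (adjusted p = 0.012). Me1, malic enzyme, supplies NADPH for the chain. Me1 stood at 312, 196, 365 and 366 CPM in the WT libraries and 591, 567, 453 and 442 CPM in the KO libraries (log2 fold change 0.73, SE 0.16, adjusted p = 0.0173). Scd1, the desaturase that turns saturated into monounsaturated fatty acids, was one of the most highly counted genes of the list. Scd1 stood at 5348, 3449, 5406 and 6380 CPM in the WT libraries and 8802, 9410, 6883 and 8463 CPM in the KO libraries (log2 fold change 0.71, SE 0.15, adjusted p = 0.0156). In all 4 of these genes whose libraries are listed, KO and WT did not overlap and WT library 2 was the lowest. Acacb, the mitochondrial acetyl-CoA carboxylase, differed by 0.68 (adjusted p = 0.0151), and Acss2, which activates acetate, by 0.58 (adjusted p = 0.0269). Without KO library 2, 1 gene of this list passed, and without KO library 1 or WT library 1 the count also fell by over 1.5 times. With the Schwann marker covariate 0 of the list passed and all 8 genes kept their direction. The median of the list was then 0.18, and the log2 fold changes of Fasn, Acly and Slc25a1 were 0.52, 0.32 and 0.17.

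Adipocyte and lipid droplet genes gave the highest median of the 26 pathway lists, 0.61. Of 26 tested, 14 were higher in KO and none lower, where 3.43% of all genes were higher and 4.95% lower. All 26 had a positive log2 fold change. Thrsp, a lipogenic regulator induced by insulin and carbohydrate, had one of the largest differences of the comparison. Thrsp stood at 168, 74.4, 223 and 236 CPM in the WT libraries and 460.4, 447, 294 and 325 CPM in the KO libraries (log2 fold change 1.12, SE 0.29, adjusted p = 0.0345). KO libraries 1 and 2 were about level with each other and well above the rest. Car3, carbonic anhydrase 3, is abundant in fat cells. Car3 stood at 156, 100.2, 175 and 184 CPM in the WT libraries and 315, 349.8, 220.0 and 308 CPM in the KO libraries (log2 fold change 0.96, SE 0.19, adjusted p = 0.0122). Gpd1 makes the glycerol 3-phosphate backbone of triglycerides, and it measured 163 ± 53.6 CPM in WT and 296 ± 55.7 CPM in KO libraries (SD, n = 4 each), a difference of 0.86 (adjusted p = 0.0374). Enzymes of the following steps were also higher: Agpat2 by 0.62 (adjusted p = 0.0159), Lpin1 by 0.63 (adjusted p = 0.0171), Dgat1 by 0.48 (adjusted p = 0.0392) and Dgat2 by 0.75 (adjusted p = 0.0415). Plin1 encodes perilipin 1, which coats droplets and holds back lipases. Plin1 stood at 126, 70.6, 155 and 154 CPM in the WT libraries and 250.1, 244, 168 and 224 CPM in the KO libraries (log2 fold change 0.81, SE 0.24, adjusted p = 0.0494). The groups did not overlap, and KO library 3 was the lowest of its group. Fitm2, which partitions triglyceride into droplets, differed by 0.52 (adjusted p = 0.0191), and Bscl2, seipin, by 0.23 (adjusted p = 0.0357). Genes of triglyceride breakdown were higher as well. Pnpla2, adipose triglyceride lipase, differed by 0.65 (adjusted p = 0.0198), its activator Abhd5 by 0.31 (adjusted p = 0.0249), its inhibitor G0s2 by 0.65 (adjusted p = 0.0209) and Lipe, hormone-sensitive lipase, by 0.71 (adjusted p = 0.0415). Adipoq, the fat cell hormone adiponectin, measured 172 ± 36 CPM in WT and 256 ± 35.1 CPM in KO libraries (SD, n = 4 each) and did not pass (0.57, adjusted p = 0.112). Adrb3, the beta-3 adrenergic receptor of fat cells, is in the list of perivascular and brown adipocyte markers instead and passed with 0.60 (adjusted p = 0.025). Between 0 and 16 genes of this list passed when 1 library was left out, 0 without KO library 2, and the count also fell by over 1.5 times without KO library 1, KO library 4, WT library 1 or WT library 2. With the Schwann marker covariate the median of the list was 0.17 and the log2 fold change of Thrsp 0.17.

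**Figure D3:**
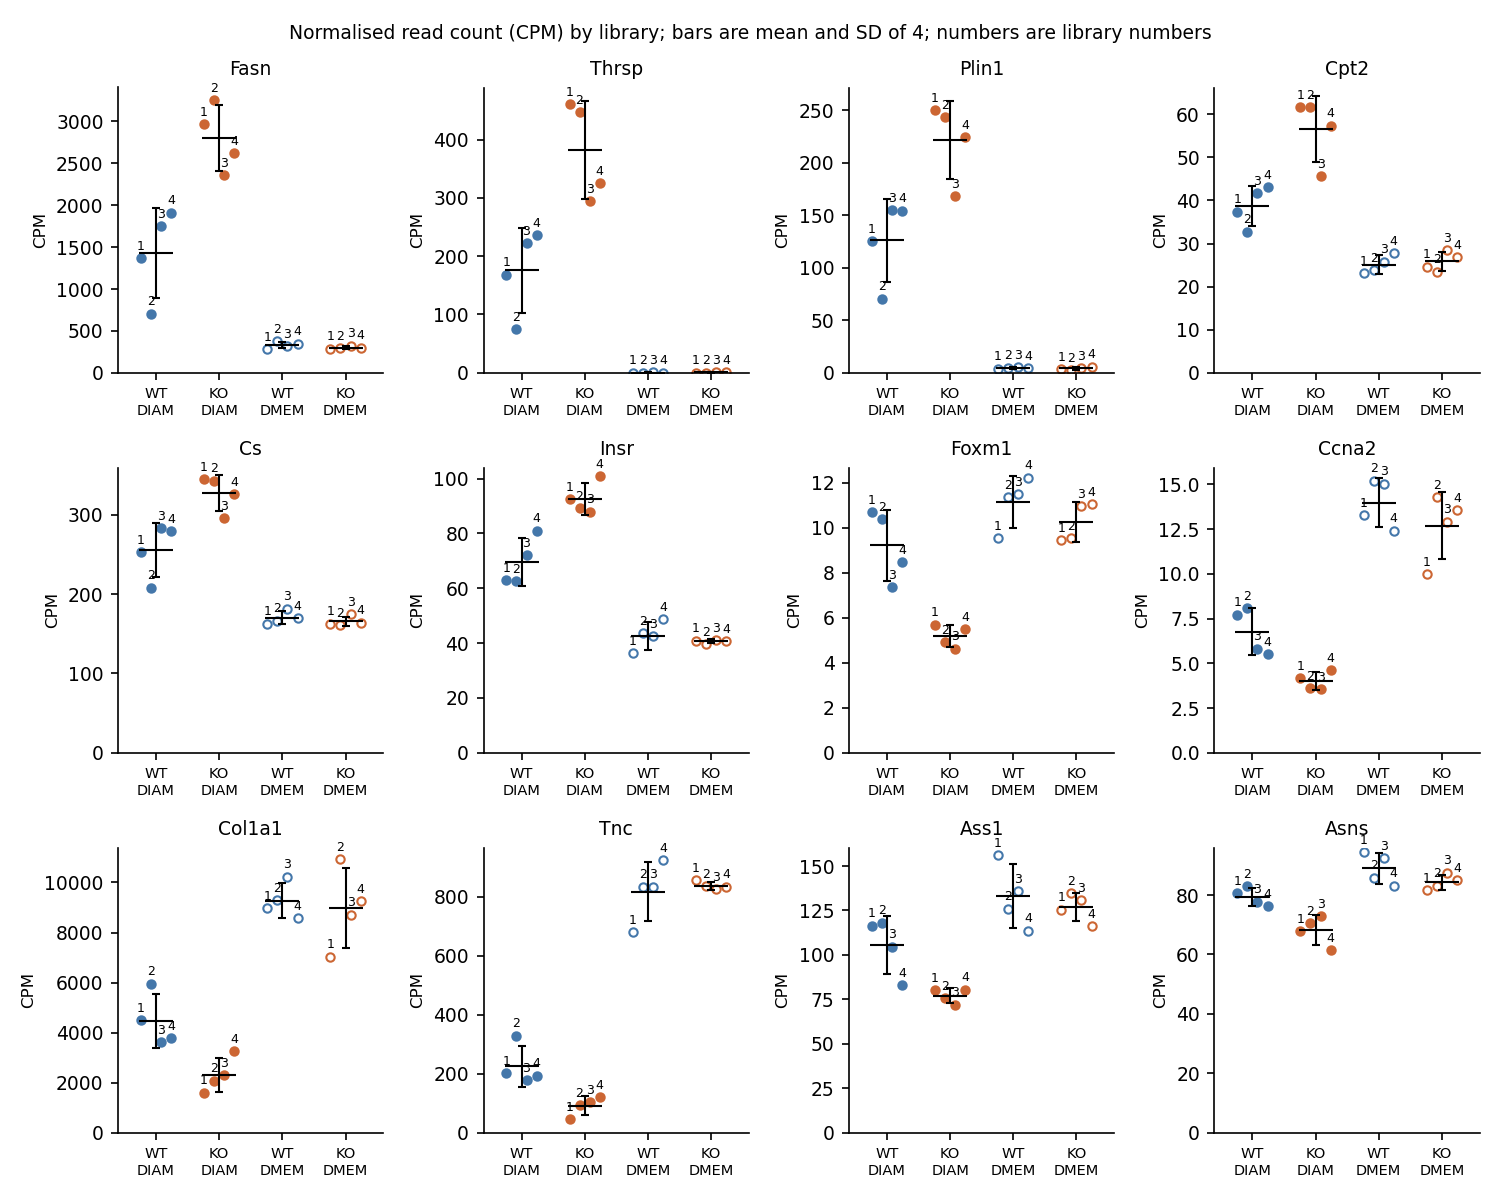
Each panel shows 1 gene's CPM on a linear axis from 0 in the 16 libraries, grouped by genotype and medium, with the library number above each point and black bars for the mean and SD of 4. In the DIAM columns of Fasn the KO libraries lie between 2359 and 3257 CPM and the WT libraries between 705 and 1911 CPM, whereas for Foxm1 and Col1a1 the KO libraries lie below the WT libraries.

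Fatty acid oxidation genes were higher together with the synthesis genes. Of 22 tested, 14 were higher in KO and none lower, where 3.43% of all genes were higher and 4.95% lower. The median log2 fold change of the list was 0.33. Cpt2 releases fatty acids from carnitine inside the mitochondrion. Cpt2 stood at 37.4, 32.7, 41.7 and 43.1 CPM in the WT libraries and 61.6, 61.7, 45.6 and 57.4 CPM in the KO libraries (log2 fold change 0.55, SE 0.10, adjusted p = 0.012). Acadm, the medium-chain acyl-CoA dehydrogenase, takes the first step of the cycle. Acadm stood at 120.1, 105, 142 and 145 CPM in the WT libraries and 199.8, 189, 154 and 176 CPM in the KO libraries (log2 fold change 0.49, SE 0.10, adjusted p = 0.012). Both genes passed in each of the 8 fits that left out a DIAM library, and neither overlapped between genotypes. The very long-chain dehydrogenase Acadvl differed by 0.45 (adjusted p = 0.0164), the hydroxyacyl-CoA dehydrogenase Hadh by 0.42 (adjusted p = 0.0151), and Etfa, which passes the electrons on, by 0.29 (adjusted p = 0.0198). The summed level of the 22 genes was 1379 to 1692 CPM in WT and 1730 to 2079 CPM in KO libraries. Without KO library 1 or KO library 2, 2 genes of the list passed, and the count also fell by over 1.5 times without WT library 1 or WT library 2. With the Schwann marker covariate the median was 0.18, and the log2 fold changes of Cpt2 and Acadm were 0.31 and 0.24.

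Genes of the citric acid cycle and the respiratory chain moved the same way. In the glycolysis and citric acid cycle list 9 of 24 tested genes were higher in KO and none lower, with a median of 0.24. The shares of all genes tested were 3.43% higher and 4.95% lower. Cs encodes citrate synthase, which joins acetyl-CoA to oxaloacetate. Cs stood at 252, 208, 283 and 279 CPM in the WT libraries and 344, 343, 296 and 326 CPM in the KO libraries (log2 fold change 0.36, SE 0.08, adjusted p = 0.0185). The groups did not overlap, and WT library 2 was the lowest of all 8. Idh3a of isocitrate dehydrogenase differed by 0.46 (adjusted p = 0.0191), and Ogdh of the oxoglutarate dehydrogenase complex by 0.29 (adjusted p = 0.0144). Outside the cycle, G6pdx, the first enzyme of the pentose phosphate pathway and a source of NADPH, differed by 0.46 (adjusted p = 0.0139) and Pfkfb3, which makes an activator of glycolysis, by 0.65 (adjusted p = 0.0167). Of 20 nuclear-encoded respiratory chain genes 9 were higher and none lower, with a median of 0.25. They included Uqcrc1 of complex III at 0.32 (adjusted p = 0.012), Ndufv1 of complex I at 0.37 (adjusted p = 0.0164), Sdha of complex II at 0.38 (adjusted p = 0.0227) and Atp5f1b of the ATP synthase at 0.32 (adjusted p = 0.0203). Of the 13 mitochondrially encoded transcripts, mt-Nd2 passed with 0.22 (adjusted p = 0.0471). That is 1 call in 13, too few to set against the 3.43% of all genes. Left out singly, KO libraries 1 and 2 and WT libraries 1 and 2 each moved both nuclear list counts down by over 1.5 times, to as few as 1 gene in each list without KO library 2. Their medians were 0.10 and 0.12 with the Schwann marker covariate.

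The receptors and targets of the hormones in DIAM were counted as separate lists, from the calls made over all genes. In the insulin and IGF list 4 of 24 genes were higher and none lower, where 3.43% of all genes were higher and 4.95% lower. Of the 24, 15 had a positive and 9 a negative log2 fold change. DESeq2 called 7 higher and 2 lower, and the authors' deposited table holds 10 higher calls and 1 lower. Insr, the insulin receptor, was the member of smallest p. Insr stood at 63, 62.6, 72.1 and 81 CPM in the WT libraries and 92.4, 89.1, 87.9 and 101 CPM in the KO libraries (log2 fold change 0.41, SE 0.09, adjusted p = 0.0156). All KO libraries were above all WT libraries. Pik3r1, a regulatory subunit of the kinase downstream of the receptor, differed by 0.34 (adjusted p = 0.0409), Gys1, muscle-type glycogen synthase, by 0.42 (adjusted p = 0.0209), and the transcription factor Foxo3 by 0.23 (adjusted p = 0.0259). Among 28 glucocorticoid response genes 5 were higher and 1 lower. Fkbp5, a receptor-induced co-chaperone of the receptor itself, averaged 506 ± 53.4 CPM in WT and 606 ± 19.4 CPM in KO libraries (SD, n = 4 each), a difference of 0.26 (adjusted p = 0.0341). In DMEM its means were 21.7 CPM in WT and 20.9 CPM in KO. Glul, glutamine synthetase, differed by 0.50 (adjusted p = 0.0156), Sult1a1, a sulfotransferase, by 0.55 (adjusted p = 0.0127), Klf15 by 0.32 (adjusted p = 0.0409) and Nfkbia by 0.32 (adjusted p = 0.0309). Mt1, metallothionein 1, was the lower member at -0.44 (adjusted p = 0.0343). Of 23 genes of oxidative stress defence 5 were higher and none lower, including Cat, catalase, at 0.47 (adjusted p = 0.012) and Gstm1, a glutathione transferase, at 0.53 (adjusted p = 0.012). DESeq2 called 6 higher and 1 lower of these 23, and the authors' deposited table holds 6 higher and 2 lower calls. Of the circadian clock list 2 of 19 were higher, where 3.43% of all genes were. They were the output factors Dbp at 0.29 (adjusted p = 0.012) and Tef at 0.28 (adjusted p = 0.0123). Leaving out WT library 1, WT library 2, KO library 1, KO library 2 or KO library 3 lowered both hormone counts by over 1.5 times, to 0 insulin and IGF genes without WT library 1 and 0 higher glucocorticoid genes without KO library 2, while without WT library 4 the insulin and IGF count was 7. Of the oxidative stress genes 2 passed without any one of WT library 1, WT library 2, KO library 1 and KO library 2. With the Schwann marker covariate the medians of the insulin and glucocorticoid lists were 0.04 and 0.08, against 0.14 and 0.18 without it. Those of the oxidative stress and clock lists were 0.05 and 0.08, against 0.10 and 0.14.

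Genes of the cell cycle were lower in KO cells. Of 29 tested, 20 were lower and none higher, where 4.95% of all genes were lower, and their median log2 fold change was -0.52. The counts of most of them were low in DIAM. Foxm1 encodes the transcription factor that drives the genes of mitosis. Foxm1 stood at 10.7, 10.4, 7.37 and 8.47 CPM in the WT libraries and 5.69, 4.91, 4.63 and 5.48 CPM in the KO libraries (log2 fold change -0.83, SE 0.12, adjusted p = 0.00789). Plk1, polo-like kinase 1, controls entry into and exit from mitosis. Plk1 stood at 4.24, 4.62, 3.59 and 3.7 CPM in the WT libraries and 1.89, 2.38, 2.19 and 2.47 CPM in the KO libraries (log2 fold change -0.85, SE 0.13, adjusted p = 0.00906). Kif11, the kinesin that separates the spindle poles, gave the same order of groups. Kif11 stood at 5.01, 5.9, 2.88 and 3.99 CPM in the WT libraries and 2.43, 2.04, 2.16 and 2.52 CPM in the KO libraries (log2 fold change -0.96, SE 0.18, adjusted p = 0.012). For these 3 genes the highest KO library lay below the lowest WT library, and each passed in all 8 fits that left out a DIAM library. Cyclins were lower across the phases: Ccne1 at -0.41 (adjusted p = 0.0358), Ccna2 at -0.76 (adjusted p = 0.012), Ccnb1 at -0.64 (adjusted p = 0.0345) and Ccnb2 at -1.02 (adjusted p = 0.0156). Ccnd1, cyclin D1, links growth signals to the cycle and was counted far more often. Ccnd1 stood at 475, 493, 393 and 335 CPM in the WT libraries and 282, 284, 323 and 292 CPM in the KO libraries (log2 fold change -0.52, SE 0.11, adjusted p = 0.0138). The replication helicase subunits Mcm2, Mcm5 and Mcm6 differed by -0.27, -0.48 and -0.26 (adjusted p = 0.0356, 0.0239 and 0.0269). Mki67, the proliferation marker, differed by -0.71 (adjusted p = 0.017), and Top2a, topoisomerase II alpha, by -0.59 (adjusted p = 0.0227). Dbf4, which activates the kinase that fires replication origins, is not in the list and had one of the 10 smallest p-values. Dbf4 stood at 9.88, 11.5, 9.37 and 8.55 CPM in the WT libraries and 6.03, 6.29, 6.3 and 6.26 CPM in the KO libraries (log2 fold change -0.66, SE 0.09, adjusted p = 0.0057). Kif23, a kinesin of the central spindle and also outside the list, had the smallest p of the comparison: it stood at 2.08, 3.62, 2.95 and 3.78 CPM in WT and at 0.388, 0.632, 0.794 and 0.935 CPM in KO libraries (log2 fold change -2.18, SE 0.26, adjusted p = 0.00483). Between 4 and 20 of the 29 genes passed when 1 library was left out, with 4 without KO library 2 and falls of over 1.5 times also without KO library 1, WT library 1 or WT library 2. With the Schwann marker covariate 0 of the list passed, all 20 kept their direction and the median of the list was -0.35. The log2 fold changes of Foxm1, Plk1 and Kif11 were then -0.86, -0.74 and -0.81.

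The promoters of genes that moved together are shown for both directions, because cell cycle promoters commonly hold a CHR element (TTTGAA), which the MuvB complex binds, and CCAAT boxes, which the factor NF-Y binds. Windows from 250 bases before to 50 bases after the start of a gene were taken from RefSeq (GRCm38.p6, a build other than that of the counts), and matches on either strand were counted. Of the 20 cell cycle genes that were lower, 17 had a window. TTTGAA was in 9 of them (52.9%) and CCAAT in 14 (82.4%), against 14.4% and 43.1% of the 10426 tested genes with a window. Cell cycle promoters commonly hold these motifs, so a higher share in this list says nothing about the genotype. The cell cycle genes that were not called were not counted. Of the 8 fatty acid synthesis genes that were higher, 7 had a window. CCAAT was in 6 of those (85.7%) and TTTGAA in 2 (28.6%). Over all 524 lower genes with a window the shares were 17.7% for TTTGAA and 44.7% for CCAAT, and over 367 higher genes 15.5% and 45.0%. CACGTG, an E-box, was in 1 window of each of the 2 lists, against 11.5% of all. Windows on 1 chromosome were left out of the choice of genes to print. Of the rest, the 3 cell cycle genes with the largest change and both motifs are printed 5′ to 3′ on the gene's strand. So are the 2 fatty acid synthesis genes with the largest change whose windows hold CCAAT. Capitals mark TTTGAA and CCAAT, or TTCAAA and ATTGG where the match is on the other strand. The windows are Ccnb2 (chr9:70421505-70421804, minus strand), Kif11 (chr19:37376132-37376431, plus strand), Plk1 (chr7:122159185-122159484, plus strand), Fasn (chr11:120824498-120824797, minus strand) and Me1 (chr9:86687228-86687527, minus strand).
Ccnb2: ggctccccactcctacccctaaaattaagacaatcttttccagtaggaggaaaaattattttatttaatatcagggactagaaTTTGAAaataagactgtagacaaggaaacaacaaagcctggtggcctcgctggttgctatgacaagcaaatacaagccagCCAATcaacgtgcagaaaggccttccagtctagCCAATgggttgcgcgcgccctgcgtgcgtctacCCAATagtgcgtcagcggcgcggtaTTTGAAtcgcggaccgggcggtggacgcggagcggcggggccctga
Kif11: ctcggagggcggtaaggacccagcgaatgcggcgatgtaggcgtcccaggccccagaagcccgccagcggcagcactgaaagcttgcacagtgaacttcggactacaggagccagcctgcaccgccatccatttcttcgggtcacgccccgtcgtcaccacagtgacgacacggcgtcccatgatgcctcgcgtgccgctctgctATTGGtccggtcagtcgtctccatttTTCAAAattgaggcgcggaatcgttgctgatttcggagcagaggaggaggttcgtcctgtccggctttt
Plk1: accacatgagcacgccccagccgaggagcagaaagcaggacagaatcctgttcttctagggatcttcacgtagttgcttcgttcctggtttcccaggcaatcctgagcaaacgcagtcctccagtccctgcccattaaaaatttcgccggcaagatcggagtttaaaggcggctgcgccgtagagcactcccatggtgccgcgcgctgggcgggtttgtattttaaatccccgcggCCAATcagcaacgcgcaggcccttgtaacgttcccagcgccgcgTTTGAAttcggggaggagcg
Fasn: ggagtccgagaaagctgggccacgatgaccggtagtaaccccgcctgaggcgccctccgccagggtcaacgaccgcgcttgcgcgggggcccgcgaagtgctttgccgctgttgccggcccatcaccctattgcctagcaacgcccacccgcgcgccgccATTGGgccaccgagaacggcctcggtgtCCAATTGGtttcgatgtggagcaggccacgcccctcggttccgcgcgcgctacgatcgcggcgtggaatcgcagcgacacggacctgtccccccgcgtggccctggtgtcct
Me1: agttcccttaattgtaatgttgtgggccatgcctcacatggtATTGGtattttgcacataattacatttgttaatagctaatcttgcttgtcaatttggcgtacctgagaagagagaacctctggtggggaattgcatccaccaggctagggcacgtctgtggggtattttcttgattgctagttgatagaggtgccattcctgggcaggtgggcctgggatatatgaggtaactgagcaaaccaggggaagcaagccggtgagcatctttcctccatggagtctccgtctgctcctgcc
In these windows Ccnb2 has 2 TTTGAA and 3 CCAAT matches, the Kif11 matches lie on the other strand, and of the 3 CCAAT matches of Fasn 2 overlap on opposite strands. A match is a run of letters and was not tested as a bound site.

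Collagens and matrix genes were lower in KO cells. The shares of all genes tested were 4.95% lower and 3.43% higher. Of 34 matrix genes tested, 14 were lower and none higher, with a median of -0.37. Their summed level was 59800 to 66671 CPM in WT and 46912 to 56609 CPM in KO libraries. Col1a1 encodes the alpha 1 chain of collagen I, the main fibrillar collagen. Col1a1 stood at 4488, 5962, 3627 and 3786 CPM in the WT libraries and 1600, 2085, 2292 and 3257 CPM in the KO libraries (log2 fold change -0.95, SE 0.20, adjusted p = 0.015). KO library 4 came closest to the WT libraries and KO library 1 was farthest from them. Thbs2, thrombospondin 2, is a matricellular protein that restrains vessel growth. Thbs2 stood at 433, 592, 342 and 335 CPM in the WT libraries and 148, 190.2, 205 and 259 CPM in the KO libraries (log2 fold change -1.08, SE 0.18, adjusted p = 0.0107). Tnc, tenascin C, is a matrix glycoprotein of remodelling tissue. Tnc stood at 201, 329.5, 179 and 193 CPM in the WT libraries and 46.6, 93.1, 104 and 122 CPM in the KO libraries (log2 fold change -1.31, SE 0.24, adjusted p = 0.012). Col5a2, a chain of collagen V, was also lower (log2 fold change -0.71, SE 0.14, adjusted p = 0.012). Col18a1, of basement membranes, measured 748 ± 176 CPM in WT and 289 ± 108 CPM in KO libraries (SD, n = 4 each), a difference of -1.37 (adjusted p = 0.0286). Postn, periostin, differed by -0.77 (adjusted p = 0.017), Col1a2 by -0.54 (adjusted p = 0.0353), Sparc by -0.36 (adjusted p = 0.0374) and Lox, the collagen cross-linking oxidase, by -0.29 (adjusted p = 0.0248). Of 20 matrix proteases and inhibitors 5 were lower and none higher. They were Timp1, an inhibitor of metalloproteinases, at -0.70 (adjusted p = 0.012), the aggrecanase Adamts4 at -0.79 (adjusted p = 0.012), cathepsin K (Ctsk) at -0.83 (adjusted p = 0.0177), Mmp14 at -0.41 (adjusted p = 0.0205) and Mmp2 at -0.58 (adjusted p = 0.0356). As few as 2 of these 5 passed without KO library 1 or KO library 2, and fewer by over 1.5 times without WT library 1 or WT library 2. In the TGF-beta and BMP list 1 of 24 was higher and 1 lower. These are 2 calls in a list of 24, where 8.38% of all genes passed. Tgfb1, the ligand, differed by -0.47 (adjusted p = 0.0392) and was lost without WT library 1, WT library 2, KO library 1, KO library 2 or KO library 3, and with the Schwann marker covariate its log2 fold change was -0.07. Bambi, a decoy receptor, differed by 0.54 (adjusted p = 0.0144). Ogn, osteoglycin, a small leucine-rich proteoglycan outside the matrix list, went the other way and was among the largest rises. Ogn stood at 120.0, 78.5, 150.5 and 199.9 CPM in the WT libraries and 257, 338, 332 and 240.4 CPM in the KO libraries (log2 fold change 1.09, SE 0.21, adjusted p = 0.012). Between 3 and 18 matrix genes passed when 1 library was left out, 3 without KO library 2, and the count fell by over 1.5 times also without KO library 1, KO library 3, WT library 1 or WT library 2. Thbs2, Tnc, Col5a2, Timp1, Adamts4, Bambi and Ogn passed in all 8 of these fits. The median of the matrix list was -0.12 and the log2 fold change of Col1a1 -0.34 with the Schwann marker covariate.

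Genes of stress, inflammation and bone-like change gave fewer calls. Over all genes tested, 4.95% were lower and 3.43% higher. Counts of 1 to 3 in lists of this size are few calls to set against those shares. In the list of protein folding and integrated stress response genes, 5 of 21 were lower and none higher. They were Atf3 at -0.86 (adjusted p = 0.0296), Trib3 at -0.52 (adjusted p = 0.0409), and the amino acid enzymes Psat1 at -0.39 (adjusted p = 0.0231), Shmt2 at -0.25 (adjusted p = 0.0177) and Asns at -0.22 (adjusted p = 0.0309). Of 19 inflammation genes 3 were lower and 1 higher. Il33, an alarmin cytokine, differed most. Il33 stood at 15.8, 30.4, 9.14 and 13.8 CPM in the WT libraries and 2.56, 4.62, 6.52 and 9.41 CPM in the KO libraries (log2 fold change -1.59, SE 0.43, adjusted p = 0.0387). KO library 4 lay just above WT library 3, so the groups overlapped. Ccl7 differed by -0.56 (adjusted p = 0.0318), Lif by -0.65 (adjusted p = 0.0476) and Vcam1, an adhesion molecule for leukocytes, by 0.35 (adjusted p = 0.0286). Of the osteochondrogenic list 2 of 15 were lower, Mgp, an inhibitor of vessel calcification, at -0.53 (adjusted p = 0.0342) and Col10a1, a collagen of hypertrophic cartilage, at -1.55 (adjusted p = 0.048). Of 27 Wnt genes 3 were lower and 1 higher. Nkd2, an antagonist of the pathway, was lower. Nkd2 stood at 86.4, 125, 57.5 and 58.4 CPM in the WT libraries and 13.7, 20.1, 33.6 and 38.8 CPM in the KO libraries (log2 fold change -1.63, SE 0.31, adjusted p = 0.0121). Wnt16 and Wnt5a, which are ligands, were also lower, by -1.17 (adjusted p = 0.0204) and -0.35 (adjusted p = 0.0424), and the co-receptor Lrp5 was higher, by 0.40 (adjusted p = 0.0296). Of 13 Notch genes the targets Hey1 and Hes1 were lower, by -0.83 (adjusted p = 0.0324) and -0.28 (adjusted p = 0.0435). Of 26 lysosome and autophagy genes 3 were lower, among them the hydrolases Neu1 at -0.28 (adjusted p = 0.017) and Gla at -0.39 (adjusted p = 0.0411), and the autophagy kinase Ulk1 was higher at 0.22 (adjusted p = 0.0157). Serpina3m and Serpina3g, protease inhibitors of the acute phase, were the 2 lower calls among 19 complement and acute phase genes, at -0.78 (adjusted p = 0.0252) and -0.89 (adjusted p = 0.0348). Of 11 immediate early genes 2 were lower, Atf3 and Jun, the latter at -0.60 (adjusted p = 0.012). In each of the lists of this paragraph, apart from the immediate early genes, at least one of the fits without KO library 1, KO library 2, WT library 1 or WT library 2 left 0 of the lower members called. Hes1 passed in 0 and Col10a1 in 1 of the 8 fits that left out a DIAM library. Vcam1, Lrp5 and Ulk1 were each lost without KO library 2. With the Schwann marker covariate the log2 fold changes of Il33, Atf3, Hey1, Serpina3m and Nkd2 were -0.22, -0.12, -0.24, -0.22 and -0.60. Those of Neu1, Lif, Wnt5a and Ulk1 changed little, to -0.29, -0.59, -0.31 and 0.22. No gene passed with that covariate.

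In the list on arginine, polyamines and nitric oxide, 24 genes were tested, of which 5 were lower and 1 higher. Over all genes tested, 4.95% were lower and 3.43% higher. Arg1, Arg2, Nos1 and Nos2, whose enzymes consume arginine, were below the filter and not tested. Ass1, argininosuccinate synthase, makes the precursor from which arginine is rebuilt out of citrulline. Ass1 stood at 116, 118, 105 and 83 CPM in the WT libraries and 80.3, 75.5, 72 and 80.4 CPM in the KO libraries (log2 fold change -0.45, SE 0.10, adjusted p = 0.0202). The groups did not overlap, and WT library 4 lay closest to the KO libraries. Ddah1 breaks down methylated arginines that inhibit nitric oxide synthases. Ddah1 stood at 114, 102, 106 and 95.7 CPM in the WT libraries and 80.2, 84.3, 89.5 and 84.3 CPM in the KO libraries (log2 fold change -0.30, SE 0.07, adjusted p = 0.022). Aldh18a1 and Pycr1, which lead from glutamate to proline, differed by -0.30 (adjusted p = 0.0159) and -0.52 (adjusted p = 0.0357), and Gamt, the last enzyme of creatine synthesis, by -0.25 (adjusted p = 0.045). Prodh, which breaks down proline, was the higher member at 0.52 (adjusted p = 0.0459). Odc1, ornithine decarboxylase, is the first enzyme of polyamine synthesis. Odc1 stood at 132, 126, 124 and 118 CPM in the WT libraries and 114, 109.6, 118 and 103 CPM in the KO libraries, and it did not pass (-0.17, adjusted p = 0.149). Arg2, the other arginase, had 5, 0, 1 and 3 counts in the WT and 2, 3, 0 and 2 counts in the KO libraries, too few to test. Epor, whose promoter drives the Cre, had 14, 11, 11 and 24 counts in the WT and 4, 20, 12 and 7 in the KO libraries. Of 10 cyclic GMP genes edgeR called 0, with 3 at an unadjusted p under 0.05, 0 by DESeq2 and 1 in the authors' deposited table. Without KO library 1 neither Prodh nor any of the 5 lower genes of the arginine list passed. The lower count also fell by over 1.5 times without KO library 2, KO library 3, WT library 1 or WT library 2. With the Schwann marker covariate the median of the arginine list was -0.10, against -0.15 without it.

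Genes of contraction and of cholesterol synthesis did not pass the test. Of 20 contractile genes edgeR called 0, with 5 at an unadjusted p under 0.05, all higher in KO, and 0 by DESeq2 or in the authors' deposited table. Their median log2 fold change was 0.22, and -0.04 with the Schwann marker covariate. Myh11, smooth muscle myosin heavy chain, is the most specific marker of the contractile state. Myh11 stood at 98.9, 51.3, 129 and 126 CPM in the WT libraries and 169, 183, 187 and 92.5 CPM in the KO libraries (log2 fold change 0.64, SE 0.28, adjusted p = 0.167). The groups overlapped, as they did for Acta2, smooth muscle actin, whose log2 fold change was 0.13 (adjusted p = 0.769). For Myh11 the 95% interval of the difference ran from 0.03 to 1.25. Of 24 genes of cholesterol synthesis and uptake edgeR called 0, with 7 at an unadjusted p under 0.05, 5 of them lower. DESeq2 called 2 higher and 1 lower there, and the authors' deposited table holds 2 higher and 3 lower calls. Of the 24, 19 had a negative and 5 a positive log2 fold change. In 8 every KO library lay below every WT library, where 9.05% of all genes did, and in 1 above. Their summed level was 1483 to 1533 CPM in WT and 1390 to 1478 CPM in KO libraries, without overlap. The median was -0.10, and -0.19 with the Schwann marker covariate. The cholesterol exporter Abca1 was higher. Abca1 stood at 169.9, 144, 169 and 187 CPM in the WT libraries and 218, 243, 202 and 223 CPM in the KO libraries. Its difference was 0.40 (adjusted p = 0.0229), and Soat1, which makes cholesteryl esters, was lower at -0.21 (adjusted p = 0.0258). They were the 2 calls among 18 genes of cholesterol efflux and scavenging, where 8.38% of all genes passed. Abca1 was lost without WT library 1, WT library 2, KO library 1 or KO library 2, and Soat1 without WT library 2, KO library 1 or KO library 2. Of 22 interferon-stimulated genes edgeR called 0, with 4 at an unadjusted p under 0.05 and 1 by DESeq2.

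The 12 largest falls chosen by the naming rule were those of Epha5, Gria1, Kcnh2, Tspan15, Artn, Gap43, B3galt5, Ntm, Cdh10, Kirrel3, Insc and Mboat2, with log2 fold changes from -2.68 to -1.93. Epha5 is a receptor for ephrins. Epha5 stood at 13.6, 26.1, 6.75 and 6.83 CPM in the WT libraries and 0.336, 1.9, 3.31 and 2.81 CPM in the KO libraries (log2 fold change -2.68, SE 0.75, adjusted p = 0.0423). Gria1 is a subunit of AMPA glutamate receptors. Gria1 stood at 4.79, 14.2, 3.7 and 3.43 CPM in the WT libraries and 0.44, 1.12, 0.657 and 1.92 CPM in the KO libraries (log2 fold change -2.65, SE 0.61, adjusted p = 0.0209). The naming rule takes only genes whose groups do not overlap, so that separation is no result of these genes. In both genes WT library 2 was the highest by a wide margin. Gap43, a protein of growing axons, belongs to the Schwann and neuronal list and gave the same order. Gap43 stood at 37.8, 71.3, 21.2 and 21 CPM in the WT libraries and 2.07, 6.73, 12.9 and 14.5 CPM in the KO libraries (log2 fold change -2.06, SE 0.57, adjusted p = 0.0408). Ntm, neurotrimin, and Kirrel3 are adhesion molecules of the immunoglobulin family. Ntm stood at 16.1, 23.8, 9.88 and 10.4 CPM in the WT libraries and 1.29, 3.91, 4.03 and 5.4 CPM in the KO libraries (log2 fold change -2.04, SE 0.38, adjusted p = 0.012). Kirrel3 differed by -1.97 (adjusted p = 0.012), and it and Ntm passed in all 8 fits that left out a DIAM library. Artn, artemin, is a growth factor for sensory neurons, and Kcnh2 is a potassium channel. They differed by -2.08 (adjusted p = 0.0135) and -2.19 (adjusted p = 0.0209).

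Of the 10 tested Schwann and neuronal markers 8 had every KO library below every WT library, where 9.05% of all genes did, and the median was -1.92. edgeR called 2, Tubb3 at -1.10 (adjusted p = 0.012) and Gap43, DESeq2 called 3, and 8 passed in the authors' deposited table. Sox10, the transcription factor that defines the neural crest glial lineage, was present in all 8 libraries. Sox10 stood at 50.0, 69.8, 31.9 and 30.9 CPM in the WT libraries and 2.64, 10.1, 17.1 and 17 CPM in the KO libraries (log2 fold change -1.97, SE 0.67, adjusted p = 0.0839). Ngfr, the low-affinity neurotrophin receptor, measured 239 ± 109.8 CPM in WT and 55.7 ± 34.7 CPM in KO libraries (SD, n = 4 each) and did not pass (adjusted p = 0.104). In DMEM the summed level of the list was 98.3 to 171 CPM in WT and 96.2 to 191 CPM in KO libraries. Since RNA was taken from whole cultures, fewer cells of a type and less RNA per cell cannot be told apart. With the Schwann marker covariate the log2 fold changes of Epha5, Gap43 and Tspan15 turned positive (0.31, 0.15 and 0.17) and did not pass. Gap43 is part of that covariate, so its change there is no separate result.

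**Figure D4:**
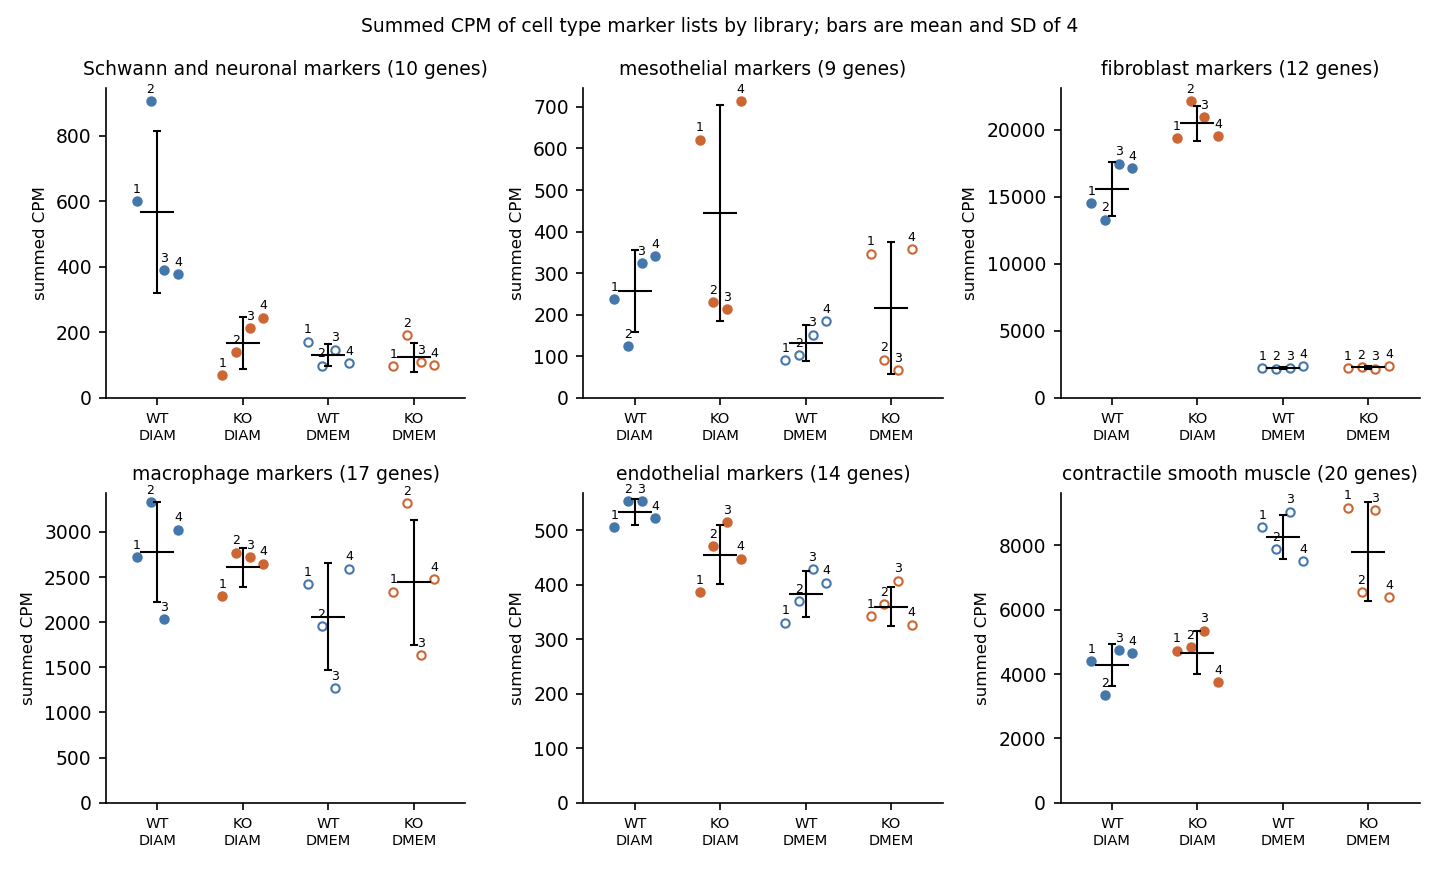
Each panel sums the CPM of 1 list of cell type markers in each of the 16 libraries, with the library number above each point, black bars for the mean and SD of 4 and axes from 0. The Schwann and neuronal sum is 377 to 906 CPM in the WT and 68.3 to 245 CPM in the KO libraries in DIAM, while the mesothelial, macrophage and contractile sums overlap between genotypes.

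Lists for the other cell types a culture from the aorta could hold were read the same way. Over all genes tested, 3.43% were higher and 4.95% lower. Among 12 fibroblast markers Gsn and Dpep1 were higher, by 0.47 (adjusted p = 0.017) and 0.51 (adjusted p = 0.0315), and the sum was 13290 to 17469 CPM in WT and 19395 to 22159 CPM in KO libraries, without overlap and mostly Gsn. Of the 12, 8 had a positive and 4 a negative log2 fold change, and DESeq2 called 2 higher and 2 lower. Gsn was at 0.08 (adjusted p = 0.457) under quantile normalization, and neither gene passed without WT library 1 or without KO library 2. The 5 tested markers of perivascular and brown fat cells summed to 223 to 394 CPM in WT and 422 to 594 CPM in KO libraries, without overlap, and to 22.1 to 28.9 CPM in WT and 21.7 to 27.9 CPM in KO libraries in DMEM. Their called members were Plin1, which is also in the adipocyte and lipid droplet list, and Adrb3, both higher and both lost without WT library 1, KO library 1 or KO library 2. Of the other members Adipoq is given above, Dio2 overlapped between genotypes, and Prdm16, a regulator of brown fat identity, lay lower in every KO library than in any WT library without passing (-0.52, adjusted p = 0.141). Of 14 endothelial markers Flt1 and Emcn were lower, by -0.96 (adjusted p = 0.0156) and -0.54 (adjusted p = 0.0486), while 9 of the 14 had a positive log2 fold change and the median was 0.19. Neither passed without KO library 2, and Emcn was also lost with median-ratio size factors (adjusted p = 0.0509) and quantile normalization (adjusted p = 0.0631). Macrophage markers summed to 2030 to 3330 CPM in WT and 2289 to 2769 CPM in KO libraries and overlapped, and of 17 tested edgeR and DESeq2 called 0, with 0 at an unadjusted p under 0.05. None of 9 mesothelial, 6 other leukocyte and 3 cardiac markers was called by edgeR or DESeq2, with 0 at an unadjusted p under 0.05. With the mesothelial markers as a covariate, a setting chosen after seeing the data, 248 genes were higher and 387 lower. Of the erythroid markers Alas2, the first enzyme of heme synthesis, was tested alone, averaged 1.83 ± 0.958 CPM in WT and 3.89 ± 2.86 CPM in KO libraries (SD, n = 4 each) and did not pass (1.09, adjusted p = 0.183). The part of these cells in the genotype difference was not tested beyond these values.

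Genes with the smallest p-values were all lower in KO. Besides Kif23, Dbf4 and Foxm1 they were Fhl3, Coro1c, Acsl4, Cd44, Specc1, Ptprn and Gm13889. Cd44 is the main receptor for hyaluronan. Cd44 stood at 126, 138, 108 and 105 CPM in the WT libraries and 66.6, 75.5, 83.5 and 81.3 CPM in the KO libraries (log2 fold change -0.64, SE 0.09, adjusted p = 0.00789). Acsl4 attaches coenzyme A to arachidonic and other polyunsaturated fatty acids, and unlike the synthesis genes it was lower. Acsl4 stood at 72.6, 71.5, 67.2 and 65 CPM in the WT libraries and 50.2, 48.3, 50.2 and 56.8 CPM in the KO libraries (log2 fold change -0.43, SE 0.06, adjusted p = 0.0057). Fhl3, a LIM-domain protein of muscle, and Coro1c, an actin-binding coronin, differed by -0.51 (adjusted p = 0.0057) and -0.35 (adjusted p = 0.0057). Specc1 differed by -1.04 (adjusted p = 0.00789), and Ptprn, a protein of secretory granules, by -0.74 (adjusted p = 0.00789). Of the 118 called genes chosen by the naming rule 32 passed in each of the 8 fits that left out a DIAM library, these 10 among them. Among the largest rises outside the lists, Kcnk3, a background potassium channel, had the largest difference of the 12 named. Kcnk3 stood at 7.74, 2.89, 11 and 10.0 CPM in the WT libraries and 21.7, 21.4, 18.7 and 12.8 CPM in the KO libraries (log2 fold change 1.24, SE 0.31, adjusted p = 0.0268). Ces1d, a carboxylesterase that hydrolyses triglyceride, differed by 0.98 (adjusted p = 0.0471), Sorl1, a sorting receptor, by 0.99 (adjusted p = 0.0321), Ppp1r1a by 0.90 (adjusted p = 0.0323) and Rdh12 by 0.86 (adjusted p = 0.0209).

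In DMEM, KO and WT were compared in the other 8 libraries. edgeR called 0 of 14217 genes (0%) there, with 438 at an unadjusted p under 0.05 and a smallest adjusted p of 0.46, DESeq2 called 1, and 2 passed in the authors' deposited table. The level of Fasn in DMEM was 331 CPM in WT and 301 CPM in KO (log2 fold change -0.14), that of Thrsp 0.373 CPM in WT and 0.46 CPM in KO, that of Foxm1 11.1 CPM in WT and 10.2 CPM in KO (-0.12) and that of Col1a1 9272 CPM in WT and 8982 CPM in KO (-0.05). The medians in DMEM were -0.07 for the fatty acid synthesis list, -0.08 for the adipocyte and lipid droplet list, -0.09 for the cell cycle list and -0.06 for the matrix list. Whether the genotype difference itself differed between media was tested as an interaction over the 16 libraries. edgeR called 0 genes (0%), with 2255 at an unadjusted p under 0.05 and a smallest adjusted p of 0.156, while DESeq2 called 225, and 234 passed in the authors' deposited table. The adjusted p of the interaction was 0.179 for Fasn, 0.171 for Foxm1, 0.184 for Col1a1 and 0.156 for Kif23. By edgeR no gene was therefore shown to differ between genotypes in DIAM more than in DMEM.

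**Figure D5:**
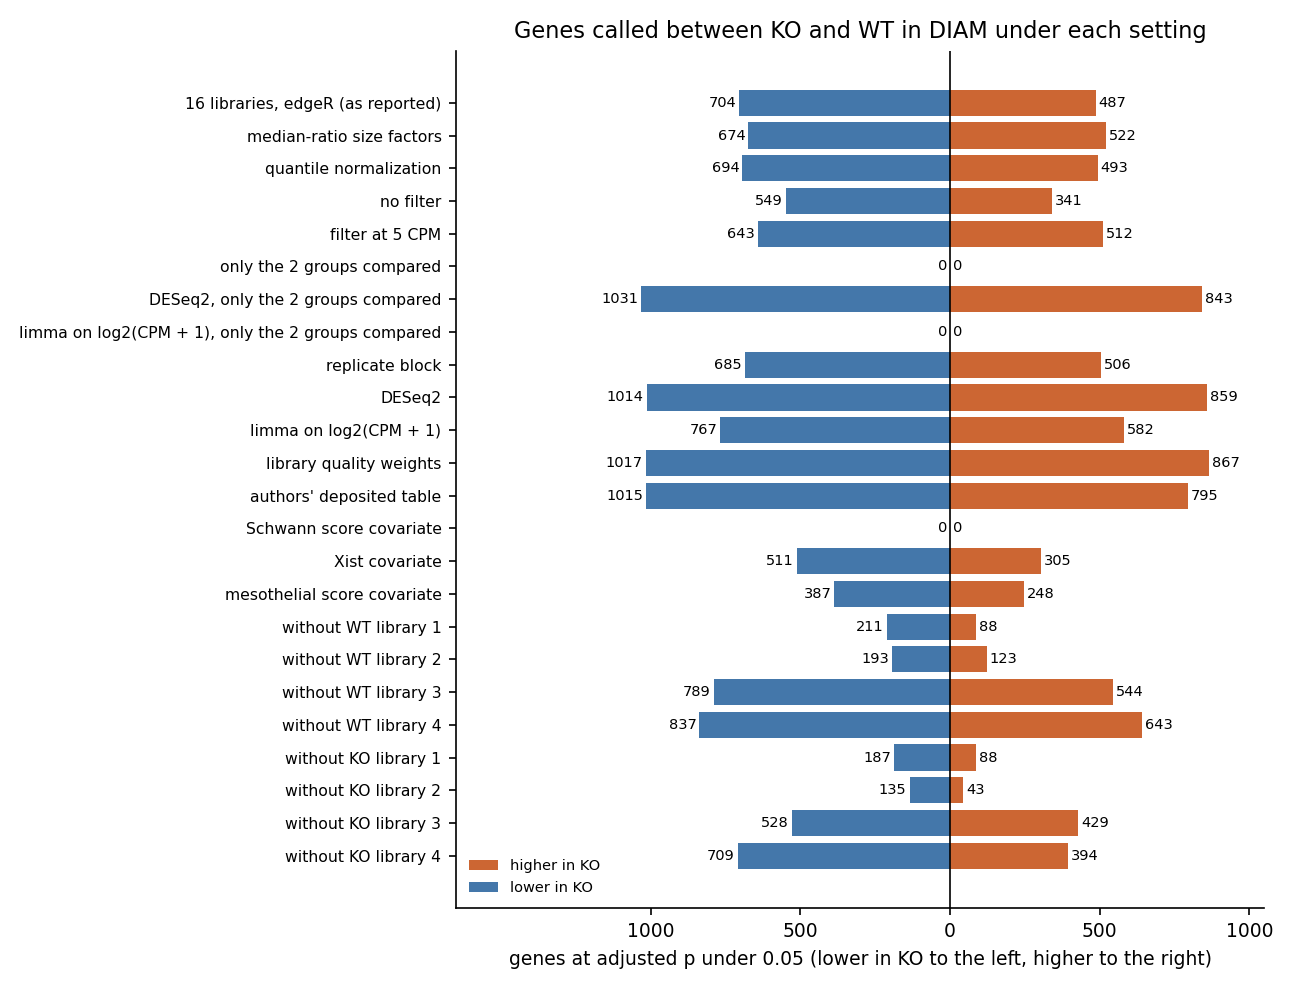
Bars give the number of genes at an adjusted p under 0.05 between KO and WT in DIAM under each way of processing the counts, lower in KO to the left and higher to the right. The counts are 0 in the 3 settings that use edgeR or limma on the 8 DIAM libraries alone or edgeR with the Schwann covariate, and between 43 and 867 higher genes in the others.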

How the data were processed

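Total RNA of 16 cultures was sequenced from unstranded TruSeq libraries after depletion of ribosomal RNA, per the labels' protocols. The submitters' processing notes name Salmon 1.9.0, GRCm39, R 4.4.2 and DESeq2 1.46.0. The labels call the library columns TPM, but their sums run from 37221192 to 47626331 with fractions, and the deposited columns were read as estimated counts. The authors also deposited, per the file headers, a base mean per gene (a signal averaged over libraries, not used), log2 fold changes and p-values of their own, whose adjusted values are used here only as an alternative. Library protocols speak of triplicates, while 4 libraries per group were analysed.

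Values were rounded. Genes with at least 1 CPM in at least 4 of 16 libraries were kept, 14217 of 20581 (at least 99.85% of the counts of each DIAM library). edgeR 4.0.16 in R 4.3.3 was run with TMM scaling, robust dispersions and 1 quasi-likelihood fit of 4 groups (12 residual degrees of freedom). Tests were 2-sided with Benjamini-Hochberg adjustment, and a gene was called at an adjusted p under 0.05. The SE was taken from the log2 fold change and the F statistic. The scripts were tested on simulated data. Alternatives used DESeq2 1.42.0, limma 3.58.1, other filters, scalings, covariates and samples.

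Genes named are the 12 largest rises and 12 largest falls of non-overlapping genes reaching a mean of 5 CPM in either group, the 10 smallest p, Arg1, Arg2, Odc1 and Epor, up to 4 called members of each of 26 pathway and 12 marker lists (or the 2 most abundant) and 5 of the interaction. Further list members were named after their values were seen. Some genes that the rule names are not reported here. Members and lists were chosen with earlier results of these data known. Counts from 8 libraries cover sampling error only within these cultures, and no pair of libraries agreed within sampling noise. Without strand, antisense partners cannot be told apart.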

Additional observations from a re-analysis of the deposited data

Results flagged for a closer look

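Of 280 combinations of a named gene and a genotype in DIAM, 13 had 1 library far from the other 3 (Dixon's test for 4 values), where chance flags about 1 in 20 groups. WT library 2 was the distant one in 8 of the 13. It was the lowest WT library for Acta2 at 522 CPM and for Adrb3 at 19.1 CPM. It was the highest for Gpnmb at 980 CPM, Tnc at 329 CPM, Ifitm3 at 478 CPM, Serpina3g at 24.3 CPM, Gria1 at 14.2 CPM and Kirrel3 at 9.92 CPM. WT library 3 was the lowest for Fhl3 at 19.6 CPM. KO library 1 was the lowest KO library for Nfkbia at 57.2 CPM, Lcp1 at 20.8 CPM and Dbf4 at 6.03 CPM, and KO library 4 for Tnnt2 at 23.0 CPM.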

How the results depend on the processing

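With 487 genes higher and 704 lower in KO as the reported counts, no gene was called in the opposite direction under any setting tried. Higher and lower counts were 0 and 0 with edgeR or limma on the 8 DIAM libraries alone, 843 and 1031 with DESeq2 on those 8, 859 and 1014 with DESeq2, 867 and 1017 with library quality weights and 795 and 1015 in the authors' deposited table. They were 0 and 0 with the Schwann marker covariate, 305 and 511 with Xist, 248 and 387 with the mesothelial covariate, and 14 and 153 at a log2 fold change of at least 1. The mesothelial covariate and the DESeq2 and limma fits of 8 libraries were chosen after seeing the data. Leaving out 1 library gave 43 to 643 higher and 135 to 837 lower genes. In DMEM the count was 0, and 1 with DESeq2, 2 in the authors' deposited table and 0 to 2 with 1 library left out (2 without KO library 1 in DMEM). For the interaction it was 0, and 225 with DESeq2, 234 in the authors' deposited table and 0 to 1 with 1 library left out. With the Schwann covariate, of which Gap43 is a part, Epha5, Gap43 and Tspan15 turned to 0.31, 0.15 and 0.17. The cause of these changes was not tested, apart from the fewer samples in some fits. With the replicate block the counts were 506 and 685, of which 416 and 604 were shared. Same-numbered KO and WT libraries in DIAM did not deviate together from their group means (correlations of -0.2 to -0.04). With so few libraries in a group, this cannot show whether same-numbered cultures were handled together. Same-numbered DIAM and DMEM libraries of one genotype correlated at -0.09 to 0.32, over 0.1 in 6 of 8 pairs. The mesothelial sums of KO libraries 1 and 4 were 621 and 714 CPM in DIAM and 347 and 358 CPM in DMEM. They were above those of KO libraries 2 and 3 in both media. The reported fit took the 16 libraries as separate, so a source shared between same-numbered DIAM and DMEM cultures was not modelled there. With the replicate number as a block within genotype, the interaction count was 0. Depth was similar across libraries, and genes near 1 CPM carry the largest counting error.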
